A study of Mus musculus with 6 samples.

Results

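The guanylate-binding proteins (GBPs) and the immunity-related GTPases (IRGs) were examined through 10 genes: Gbp2, Gbp3, Gbp5, Gbp6, Gbp7 and Gbp9 of the first family, and Irgm1, Irgm2, Igtp and Iigp1 of the second. The genes were chosen by symbol, and all 10 were among the 23107 rows of the deposited count table, all 10 of them past the filter on low counts. Libraries were made from CD11b+ Gr-1+ myeloid cells sorted by flow cytometry out of gliomas of C57BL/6 mice, with 3 libraries from tumours with mutant IDH1 (mIDH1) and 3 from tumours with wild-type IDH1 (wtIDH1). CD11b marks myeloid cells, and Gr-1 is shared by Ly6G of neutrophils and Ly6C of many monocytes. IDH1 is the cytosolic isocitrate dehydrogenase, whose mutant form in glioma makes 2-hydroxyglutarate. The study sets sorted cells of the 2 tumour genotypes side by side. The labels do not say how the tumours were induced, how old the mice were or whether each library is a mouse of its own, so that p-values measure only the spread between these libraries. The genotype is that of the tumour, and counts per gene do not tell mutant from wild-type Idh1 transcripts.

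Both families are GTPases that interferon, above all interferon gamma, induces in macrophages and other cells. GBPs are large GTPases that assemble on pathogen-containing vacuoles and on bacteria in the cytosol, and they promote inflammasome activation. Among IRGs of the mouse, Irgm1, Irgm2 and Igtp (also called Irgm3) are regulators that sit on the cell's own membranes and hold the effectors in check, whereas effectors such as Iigp1 (Irga6) load onto vacuoles and break them. Interferon gamma acts on promoters through GAS elements and induces Irf1, and IRF proteins bind interferon-stimulated response elements (ISREs).

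The stretches before the start sites are shown because elements of these kinds are how interferon reaches both families. Promoters of 7 members (Gbp2, Gbp3, Gbp5, Gbp7, Irgm1, Irgm2 and Igtp) were found in the RefSeq table of the GRCm38.p6 build, and Gbp6, Gbp9 and Iigp1 were not matched. Each sequence runs 5′ to 3′ over 100 bases on the gene's strand, around the ISRE-like match nearest to the first listed start. Capitals mark matches that lie wholly inside the stretch, either to an ISRE-like pattern, which is GAAA, any 2 bases and GAAA again (on the other strand TTTC, any 2 bases and TTTC), or to a GAS-like pattern, which is TTC, any 3 bases and GAA and reads the same on both strands. Overlapping ISRE-like matches in Gbp3 and Irgm1 form 1 longer run of capitals.
Gbp2: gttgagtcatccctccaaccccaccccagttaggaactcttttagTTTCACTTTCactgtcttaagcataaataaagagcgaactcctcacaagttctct
Gbp3: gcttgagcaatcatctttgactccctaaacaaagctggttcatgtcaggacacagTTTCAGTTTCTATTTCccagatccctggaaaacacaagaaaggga
Gbp5: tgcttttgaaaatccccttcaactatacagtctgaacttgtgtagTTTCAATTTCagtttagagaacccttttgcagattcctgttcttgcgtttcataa
Gbp7: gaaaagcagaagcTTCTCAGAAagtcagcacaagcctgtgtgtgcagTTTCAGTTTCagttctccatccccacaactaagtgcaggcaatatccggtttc
Irgm1: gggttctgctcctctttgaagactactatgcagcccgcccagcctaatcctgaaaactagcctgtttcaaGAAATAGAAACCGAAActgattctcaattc
Irgm2: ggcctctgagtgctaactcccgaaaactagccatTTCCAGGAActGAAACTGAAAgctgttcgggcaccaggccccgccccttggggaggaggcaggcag
Igtp: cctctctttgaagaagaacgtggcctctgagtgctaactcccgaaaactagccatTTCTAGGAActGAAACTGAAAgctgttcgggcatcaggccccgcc
The positions in GRCm38.p6 (mm10) are Gbp2 chr3:142620559-142620658 (plus strand), Gbp3 chr3:142559944-142560043 (plus strand), Gbp5 chr3:142496724-142496823 (plus strand), Gbp7 chr3:142530236-142530335 (plus strand), Irgm1 chr11:48871421-48871520 (minus strand), Irgm2 chr11:58214868-58214967 (plus strand), Igtp chr11:58199456-58199555 (plus strand).

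All 7 promoters held an ISRE-like match within 250 bases before the first listed start, whereas 2.98% of the 32851 promoters in the table did. The first base of the match nearest to the start lay 24 bases before it in Irgm1, 34 in Igtp, 39 in Gbp3, 53 in Gbp7, 59 in Gbp2, 64 in Irgm2 and 165 in Gbp5. A second listed start of Gbp3 had no match. GAS-like matches lay in the same window in 4 of the 7 (Gbp5, Gbp7, Irgm2 and Igtp), against 7.02% of all promoters. In Irgm2 and Igtp the GAS-like match directly preceded the ISRE-like one. These neighbouring genes had promoters that were 89.1% identical over 221 aligned bases. The RefSeq start used for Irgm2 (58214977) lies inside its GENCODE span, which begins at 58199618. That of Gbp5 (142496934) likewise lies inside a span that begins at 142493978. The stretches of these 2 genes thus do not precede the outermost GENCODE start. A match is a description of the letters and not a measured binding site.

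Library totals lay between 19728204 and 35093267 counts in mIDH1 and between 20502713 and 27750515 in wtIDH1, so that 3 counts, which a count of 0 still allows, corresponded to at most 0.152 CPM (counts scaled to library size by the TMM method, counting error only). All members were far above this floor. Itgam, the gene of CD11b, was at 2072 ± 211 CPM in mIDH1 and 1894 ± 146 CPM in wtIDH1 libraries (SD, n = 3 each). Ly6c2, of the antigen that Gr-1 shares with monocytes, was at 46.9, 54.3 and 33.8 CPM in mIDH1 and at 120.2, 215 and 121 CPM in wtIDH1 libraries, and Ly6g was not among the genes tested. The sorted cells carried markers of macrophages as well as of the gated types. The 8 macrophage genes summed to between 6379 and 14085 CPM in mIDH1 and between 4258 and 5139 CPM in wtIDH1 libraries, and 4 of them rose. The 10 neutrophil genes summed to between 443 and 498 CPM in mIDH1 and between 334 and 417 CPM in wtIDH1 libraries, with Camp at 0 in some. Of the 9 neutrophil genes tested, 1 fell and 3 rose. Of all genes tested, 5.39% fell and 2.78% rose. Glioma and neural genes summed to between 85.6 and 94.0 CPM in mIDH1 and between 82.8 and 91.9 CPM in wtIDH1 libraries, most of it Mbp, with Sox2 and Olig2 at 0 in some. Sox2 rose (0.546, 7.30 and 4.19 CPM in mIDH1, against 0, 0.0759 and 0.151 CPM in wtIDH1, edgeR adjusted p = 0.037), and Nes lay apart higher without passing (adjusted p = 0.092). Fewer cells of a type and less RNA per cell cannot be told apart in such libraries.

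In myeloid cells from mIDH1 tumours 1 of the 10 genes, Gbp6, fell, and the other 9 did not pass edgeR's quasi-likelihood test at an adjusted p of 0.05. Of the 12950 genes tested, 8.17% passed, 5.39% as lower and 2.78% as higher in mIDH1. With DESeq2 it was again 1 of the 10, where 7.36% of all genes passed as lower. All 6 GBP genes had negative log2 fold changes (mIDH1 over wtIDH1), with a median of -0.74, and 2 of the 4 IRG genes were negative and 2 positive. The median over the 10 genes was -0.67, beside 0.06 over all genes tested, and 4 of the 10 had an unadjusted p under 0.05, as did 22.2% of all genes tested. The groups did not overlap, with mIDH1 lower, in 2 of the 10, Gbp6 and Gbp9, as in 14.9% of all genes tested, and none lay apart with mIDH1 higher. Groups lay apart in either direction in 28.9% of all genes tested.

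**Figure D1:**
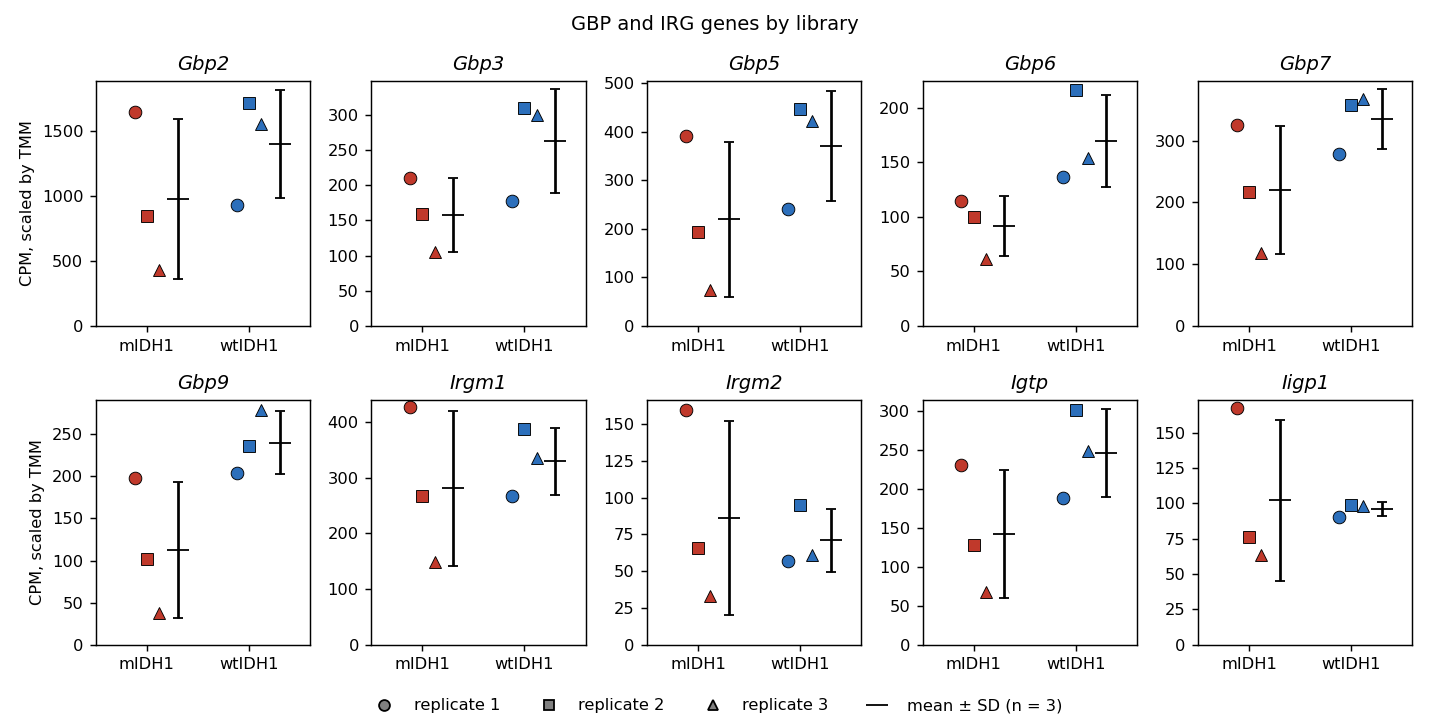
Level of each gene in CPM (vertical axis, counts scaled to library size by TMM, a separate linear scale from 0 for each gene) in 3 mIDH1 and 3 wtIDH1 libraries, with marker shapes for replicates and bars for the mean ± SD. In every gene mIDH1 replicate 1 is the highest and replicate 3 the lowest mIDH1 library, and the groups are apart in Gbp6 and Gbp9 alone.

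Among the GBPs, Gbp6, a gene that restricts intracellular bacteria in mouse macrophages (chromosome 5, 105270702 to 105293698, minus strand), was at 114, 100.1 and 61.2 CPM in mIDH1 replicates 1, 2 and 3, against 137, 217 and 154 CPM in wtIDH1 replicates 1, 2 and 3. All mIDH1 libraries lay below all wtIDH1 libraries. The log2 fold change was -0.88 ± 0.24 SE (edgeR adjusted p = 0.044). Gbp6 is also the member whose reads are hardest to place: 70.7% of the 50-base windows in its GENCODE transcripts occur in transcripts of another gene. Of all its windows, 45.9% occur in Gbp10 and 65.0% in the overlapping gene model Gm43302. When the counts of the chromosome 5 genes Gbp4, Gbp6, Gbp8, Gbp9, Gbp10 and Gbp11 were summed, the sum was at 374 ± 209 CPM in mIDH1 and 801 ± 69.1 CPM in wtIDH1 (log2 fold change -1.10 ± 0.32 SE, edgeR adjusted p = 0.053). The call on Gbp6 was lost without any 1 library other than mIDH1 replicate 1, with adjusted p up to 0.206.

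Gbp9, its neighbour in the same cluster (chromosome 5, 105077630 to 105139539, minus strand), was at 198, 102 and 37.7 CPM in the mIDH1 libraries, against 205, 236 and 279 CPM in the wtIDH1 libraries. The highest mIDH1 library lay just below the lowest wtIDH1 library, and the mIDH1 libraries spread 5.25-fold. Its log2 fold change was -1.09 ± 0.41 SE (edgeR adjusted p = 0.130), the most negative of the 10 genes but not past the threshold.

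The other 4 GBP genes lie together on chromosome 3, on the plus strand. Gbp2, a prenylated GBP that restricts Toxoplasma in mice (142620602 to 142638008), was at 1645, 848 and 432 CPM in mIDH1, against 934, 1716 and 1551 CPM in wtIDH1. The mIDH1 libraries ran from below the lowest wtIDH1 library up into the range of the 2 highest (log2 fold change -0.52 ± 0.37 SE, edgeR adjusted p = 0.458). Gbp5, which promotes assembly of the NLRP3 inflammasome (142493978 to 142522344), was at 391, 193 and 74.4 CPM in mIDH1, against 240.1, 448 and 422 CPM in wtIDH1. Its mIDH1 libraries spread 5.26-fold and its wtIDH1 libraries 1.86-fold (log2 fold change -0.75 ± 0.43 SE, edgeR adjusted p = 0.341).

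Gbp3 (142560026 to 142573209) was at 210.1, 159 and 105 CPM in mIDH1, against 177, 310.1 and 300 CPM in wtIDH1. Its groups overlapped through wtIDH1 replicate 1, which lay between the mIDH1 libraries (log2 fold change -0.73 ± 0.26 SE, edgeR adjusted p = 0.113). Gbp7, which helps assemble the phagocyte NADPH oxidase on vacuoles in mice (142530342 to 142550149), was at 326, 217 and 118 CPM in mIDH1, against 279, 358 and 367 CPM in wtIDH1. Only mIDH1 replicate 1 reached into the wtIDH1 range (log2 fold change -0.60 ± 0.29 SE, edgeR adjusted p = 0.240). Shared 50-base windows made up 2.03% of Gbp2, 3.75% of Gbp3, 1.44% of Gbp5 and 12.7% of Gbp7, so these 4 can be told from one another over most of their length.

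Of the regulator IRGs on chromosome 11, Irgm1, needed for resistance to intracellular bacteria and tied to autophagy (48861968 to 48871683, minus strand), was at 427, 267 and 149 CPM in mIDH1, against 267, 388 and 335 CPM in wtIDH1. The groups overlapped widely (log2 fold change -0.23 ± 0.30 SE, edgeR adjusted p = 0.717). Igtp, a regulator found on the endoplasmic reticulum (58199556 to 58207591, plus strand), was at 231, 128 and 68.2 CPM in mIDH1, against 188, 302 and 249 CPM in wtIDH1. Here mIDH1 replicates 2 and 3 were below every wtIDH1 library and mIDH1 replicate 1 was not (log2 fold change -0.79 ± 0.34 SE, edgeR adjusted p = 0.186). Irgm2, a Golgi regulator that restrains caspase-11 (58199618 to 58222782, plus strand), was at 160, 65.5 and 33.1 CPM in mIDH1, against 56.7, 95.2 and 60.8 CPM in wtIDH1. The mIDH1 libraries enclosed the wtIDH1 range on both sides (log2 fold change 0.28 ± 0.42 SE, edgeR adjusted p = 0.761).

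The annotated exons of Irgm2 and Igtp overlap on the same strand, and 11.8% of the windows of Igtp occur in Irgm2, so part of their reads can go to either gene. The log2 ratio of Irgm2 to Igtp counts was -0.53, -0.97 and -1.04 in mIDH1 libraries, against -1.73, -1.67 and -2.03 in wtIDH1 libraries. All mIDH1 libraries had more Irgm2 per Igtp count than any wtIDH1 library, a pair picked after its values were seen and so not tested. Summed, the pair was at 229 ± 148 CPM in mIDH1 and 317 ± 76.6 CPM in wtIDH1 (log2 fold change -0.47 ± 0.36 SE, edgeR adjusted p = 0.499).

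The effector IRG Iigp1 (chromosome 18, 60376027 to 60392634, plus strand) was at 167, 76.1 and 63.1 CPM in mIDH1, against 90.6, 99.1 and 98.3 CPM in wtIDH1. The wtIDH1 libraries lay within 1.09-fold of each other, the least spread among the 10 genes, and the mIDH1 libraries lay on both sides of them (log2 fold change 0.09 ± 0.30 SE, edgeR adjusted p = 0.903).

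Levels per kilobase of exon allow the genes to be ranked within a group. In mIDH1 libraries Gbp2 stood first with 388 ± 245 CPM per kilobase, followed by Irgm1 at 122 ± 60.5, Gbp5 at 71.9 ± 52.4, Igtp at 70.5 ± 40.6 and Gbp3 at 51.7 ± 17.3. Gbp7, Gbp6, Iigp1, Gbp9 and Irgm2 were between 23.4 and 39.3 CPM per kilobase there. After Gbp2 no neighbours in that order differed by more than their SDs, and Irgm1 to Gbp5 can stand in either order. In wtIDH1 libraries Gbp2 was at 557 ± 164 CPM per kilobase, followed by Irgm1 at 143 ± 26.3, Igtp at 122 ± 28.1, Gbp5 at 121 ± 37.1 and Gbp3 at 85.9 ± 24.2. Gbp6, Gbp7 and Gbp9 were between 54.0 and 65.0 CPM per kilobase, and Iigp1 at 30.7 and Irgm2 at 19.2 ± 5.74 stood last, each below its neighbour by more than their SDs. From Irgm1 to Gbp9 neighbours in the wtIDH1 order did not differ beyond their SDs. Gbp2 was thus highest per length in both groups, and Irgm2, whose annotated exons take in exons of Igtp, was lowest.

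The 10 genes varied together from library to library. In all 10 the mIDH1 libraries were ordered replicate 1 above 2 above 3, an order found in 18.8% of all genes tested, and in all 10 wtIDH1 replicate 1 was the lowest wtIDH1 library, as in 35.7% of all genes tested. Of the 16 other genes of both families that passed the filter, 9 had that mIDH1 order and 8 had wtIDH1 replicate 1 lowest. Centred log2 CPM averaged over the genes was 0.50, -0.30 and -1.20 in mIDH1 replicates 1, 2 and 3, against 0.00, 0.59 and 0.42 in wtIDH1 replicates 1, 2 and 3. Over the 6 libraries Pearson's r between pairs of these genes ran from 0.45 to 0.99 with a median of 0.91 (45 pairs that share libraries and scaling, given as a description). The genes outside both families whose log2 CPM followed this mean most closely, among those with at least 5 CPM, were Cnpy4 (r = 0.997), Nod2 (0.996), Usp8 (0.995), Gabpb2 (0.990) and Phlda1 (0.990). These 5 are the top of a ranking of all such genes over 6 libraries, and r does not measure the size of a change. Cnpy4 ran only from 14.1 to 18.1 CPM over the 6 libraries and Usp8 from 161 to 196 CPM. None of the 5 passed edgeR's test. Nod2, a cytosolic sensor of bacterial cell wall fragments, was at 97.8, 53.7 and 23.1 CPM in mIDH1, against 68.1, 113 and 107 CPM in wtIDH1.

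**Figure D2:**
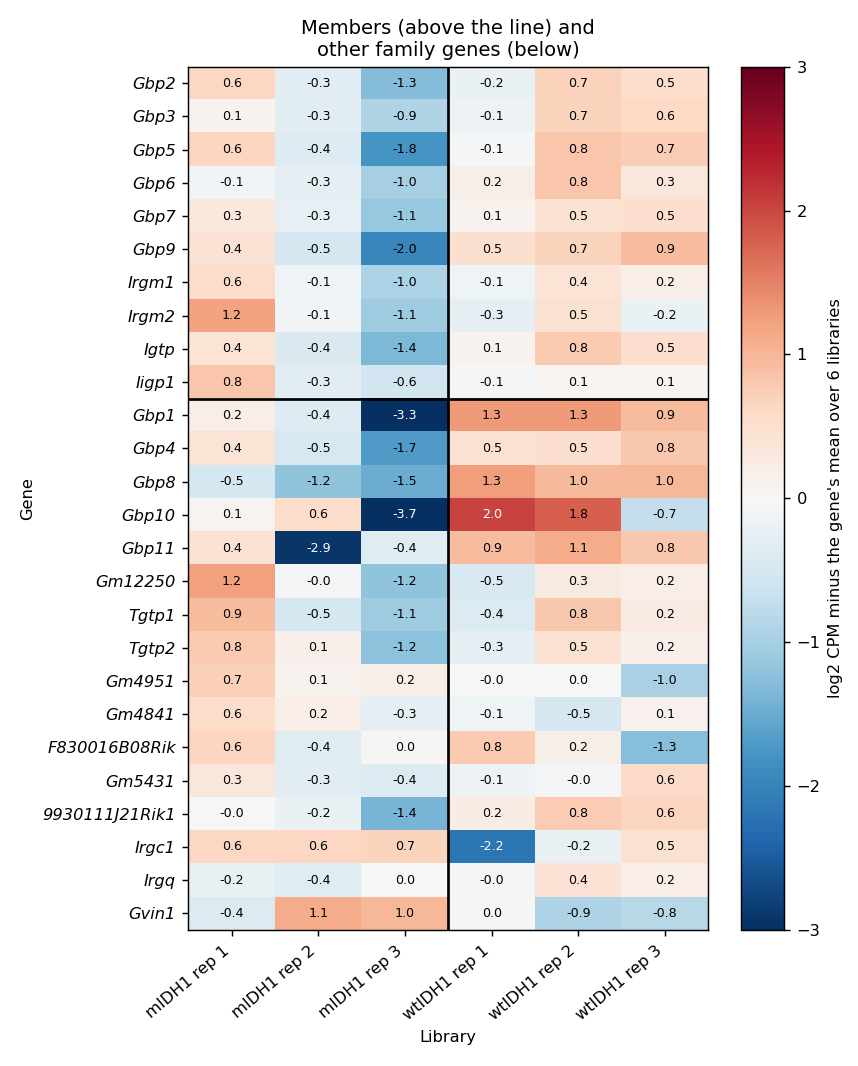
Log2 CPM of each gene minus its mean over the 6 libraries, with rows for the 10 genes (above the line) and 16 other family genes that passed the filter (below it), and columns for 3 mIDH1 and 3 wtIDH1 libraries. Colours saturate at 3 in size. Among the mIDH1 libraries all 10 genes are highest in replicate 1 and lowest in replicate 3, and Gbp8 is low in all 3 mIDH1 libraries.

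How many of the genes passed turned on which libraries were compared. Without mIDH1 replicate 1, 7 of the 10 fell (Gbp2, Gbp3, Gbp5, Gbp6, Gbp7, Gbp9 and Igtp), where 5.25% of all genes tested passed as lower, and the median of the 10 was -1.04. In that fit Gbp9 had a log2 fold change of -1.79 ± 0.34 SE (edgeR adjusted p = 0.0078) and Gbp5 one of -1.47 ± 0.36 SE (adjusted p = 0.028). Irgm1, Irgm2 and Iigp1 did not pass in it, at -0.67, -0.53 and -0.47. Without mIDH1 replicate 3 the median was -0.32 and none of the 10 passed, where 4.94% of all genes tested passed as lower. There 4 of the 10 had an unadjusted p under 0.05, and Irgm1 had a log2 fold change of 0.07. None passed either without mIDH1 replicate 2, where 3% of all genes tested passed as lower. The same held without wtIDH1 replicate 1, 2 or 3, where 3.58, 1.9 and 1.98% of all genes tested passed as lower.

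**Figure D3:**
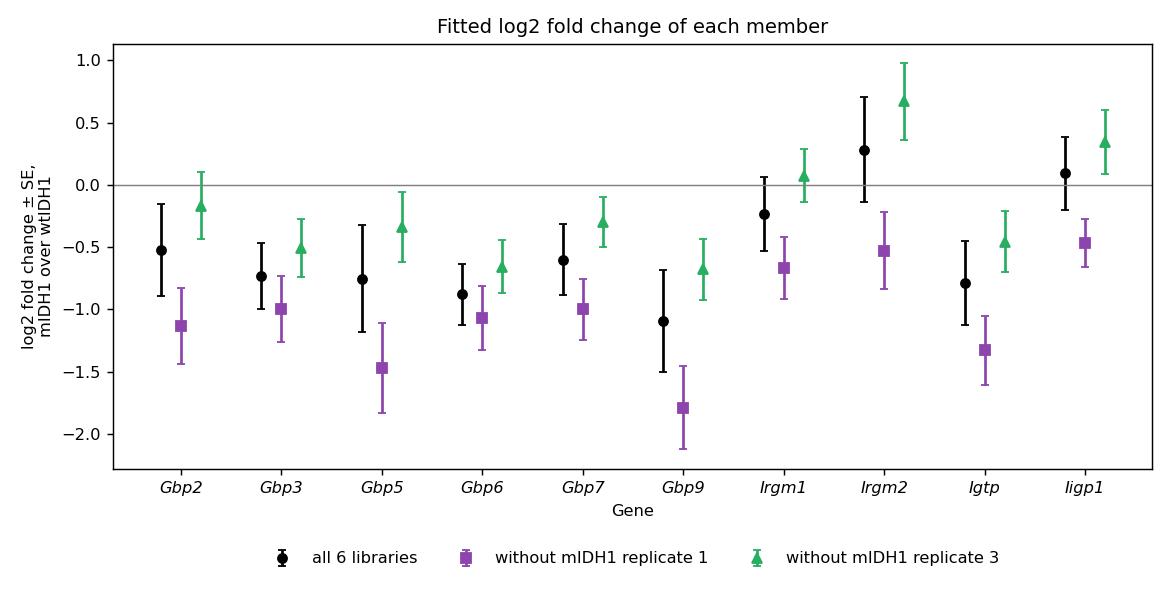
Log2 fold change of mIDH1 over wtIDH1 with its SE (vertical axis) for each of the 10 genes from edgeR, with all 6 libraries, without mIDH1 replicate 1 and without mIDH1 replicate 3. Every gene is lowest without mIDH1 replicate 1 and highest without mIDH1 replicate 3. Gbp6 moved least, from -1.07 to -0.66 between these 2 fits.

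Marker genes of myeloid cell types also differed between the mIDH1 libraries. The 8 macrophage genes summed to 6379, 6780 and 14085 CPM in mIDH1 replicates 1, 2 and 3. The library lowest in GBP and IRG genes was thus the highest in this sum. Apoe alone was at 2173, 2690 and 6836 CPM in these libraries, and Cd68 went the other way, at 303, 285 and 281 CPM. The sum of 6 microglia genes, none of which passed, was also highest in mIDH1 replicate 3 (647, 781 and 1321 CPM). In wtIDH1 replicates 1, 2 and 3 it was 1082, 883 and 723 CPM. The 6 monocyte genes summed to 3633, 2247 and 1012 CPM in mIDH1 and to 1202, 2226 and 2202 CPM in wtIDH1 replicates 1, 2 and 3. Most of that sum in mIDH1 was Chi3l3, at 2488, 1230 and 757 CPM in mIDH1 and 293, 772 and 891 CPM in wtIDH1, while Ly6c2, Ccr2 and Plac8 were highest in mIDH1 replicate 2 among mIDH1 libraries. Of these 6, 2 fell (Ly6c2 and Plac8), where 5.39% of all genes tested passed as lower. None of the 14 macrophage and monocyte genes had 0 counts in any library. The 7 T and NK cell genes found are of cells that a CD11b+ Gr-1+ sort should mostly remove. They summed to 450, 561 and 299 CPM in mIDH1 and to 355, 235 and 208 CPM in wtIDH1. Of these 7, 1 was higher (Cd4), where 2.78% of all genes tested passed as higher. The part of these cell types in the GBP and IRG levels was not tested.

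Other genes of both families that the table held were measured too. Of 17, 16 passed the filter, with a median log2 fold change of -0.26. Of these, 1 fell and none rose, where 5.39% of all genes tested passed as lower. Without mIDH1 replicate 1, 3 fell, where 5.25% of all genes tested passed as lower. Gbp8 (chromosome 5, 105014150 to 105139540, minus strand) was the gene that fell, at 33.8, 21.1 and 17.2 CPM in mIDH1, against 116, 96.6 and 97.8 CPM in wtIDH1. Every mIDH1 library was below every wtIDH1 library (log2 fold change -2.10 ± 0.26 SE, edgeR adjusted p = 0.00055), and this call held without any 1 library. It lies in the chromosome 5 cluster summed above, and its annotated exons overlap those of Gbp4 and Gbp9. Gbp4 (236, 129 and 55.1 CPM in mIDH1, against 247, 255 and 314 CPM in wtIDH1) had a log2 fold change of -0.95 and 9930111J21Rik1 one of -0.98 (edgeR adjusted p = 0.141 and 0.060), and neither passed. Gbp1 (now named Gbp2b) and Gbp10 had as few as 2 counts in mIDH1 replicate 3, and no statement on them is made.

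Gm12250, Tgtp1 and Tgtp2, further effector IRGs, resembled Iigp1 in having mIDH1 values on both sides of the wtIDH1 range. The regulators Irgm1 and Irgm2 did so too. Not all other family genes did: 9930111J21Rik1 lay apart lower and Gm4951 apart higher in mIDH1. Gm12250, the gene of Irgb10 (annotated as a processed pseudogene in GENCODE), which attacks bacterial membranes together with GBPs in mice, was at 222, 92.9 and 41.2 CPM in mIDH1, against 69.0, 114 and 110 CPM in wtIDH1 (log2 fold change 0.28, edgeR adjusted p = 0.768). Tgtp1 and Tgtp2, 2 near copies that share 81.2 and 86.6% of their windows with other genes, summed to 159 ± 98.8 CPM in mIDH1 and 168 ± 49.0 CPM in wtIDH1 (log2 fold change -0.08, edgeR adjusted p = 0.936).

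Ratios within a library need no scaling between libraries, and are given here for both families. The log2 ratio of summed IRG counts to summed GBP counts over the 10 genes was -1.55, -1.59 and -1.40 in mIDH1 libraries, against -1.71, -1.89 and -2.05 in wtIDH1 libraries. All mIDH1 libraries had more IRG counts per GBP count, and the means differed by 0.37 on the log2 scale (SDs 0.10 and 0.17). The log2 ratio of the regulators Irgm1, Irgm2 and Igtp to the effectors Iigp1, Tgtp1, Tgtp2 and Gm12250 was 0.33, 0.53 and 0.56 in mIDH1 libraries, against 0.88, 0.87 and 0.78 in wtIDH1 libraries. The regulators were the larger sum in every library, by less in each mIDH1 library than in any wtIDH1 library. With Iigp1 as the only effector the groups overlapped, at 2.29, 2.60 and 1.99 in mIDH1 libraries, against 2.499, 2.99 and 2.71 in wtIDH1 libraries. These ratios are descriptions and carry no test.

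**Figure D4:**
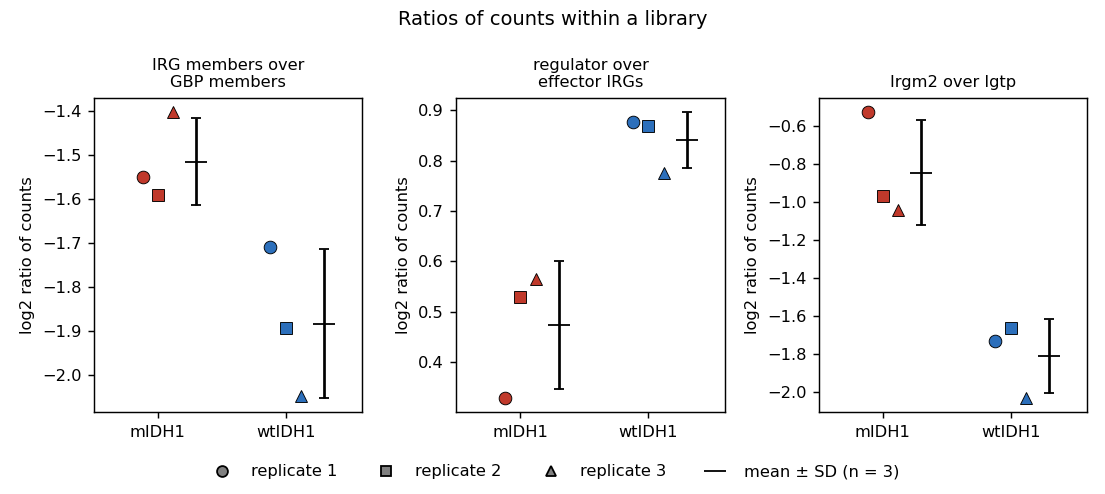
Log2 ratios of counts within each library (vertical axes) for summed IRG over summed GBP genes, regulator over effector IRGs, and Irgm2 over Igtp, in 3 mIDH1 and 3 wtIDH1 libraries, with the mean ± SD. The groups do not overlap in any of the 3 ratios.

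In the pathway that induces these genes, 2 of 11 interferon gamma signal genes fell and none rose. Of all genes tested, 5.39% passed as lower and 2.78% as higher. Stat2, which acts in the signal of type I interferon, was at 85.2 ± 35.7 CPM in mIDH1 and 373 ± 77.4 CPM in wtIDH1 (log2 fold change -2.13), and Irf8, a transcription factor of myeloid cells, at 264 ± 20.9 CPM in mIDH1 and 447 ± 102 CPM in wtIDH1 (-0.76, edgeR adjusted p = 0.00076 and 0.029). Irf1, which acts on GBP promoters in mice, was at 475, 289 and 178 CPM in mIDH1, against 305, 488 and 396 CPM in wtIDH1, in the same order of libraries as the 10 genes (log2 fold change -0.34, edgeR adjusted p = 0.564). Ifng itself was at 64.3, 53.5 and 24.1 CPM in mIDH1, against 36.5, 25.99 and 21.8 CPM in wtIDH1 (log2 fold change 0.75, edgeR adjusted p = 0.213). The groups overlapped. Ifngr1, a chain of the interferon gamma receptor, was at 411, 536 and 549 CPM in mIDH1, against 377, 344 and 280.4 CPM in wtIDH1, and did not pass although the groups lay apart (log2 fold change 0.58, edgeR adjusted p = 0.069). The number of signal genes that fell was 1 without mIDH1 replicate 2, wtIDH1 replicate 1 or wtIDH1 replicate 2, and 5 without mIDH1 replicate 1. With DESeq2, upper-quartile or total scaling, or without mIDH1 replicate 1 or 3, 1 signal gene passed as higher.

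Of 11 other interferon gamma targets that passed the filter, 2 fell, where 5.39% of all genes tested passed as lower. They were the chemokine gene Cxcl10 (log2 fold change -1.65, edgeR adjusted p = 0.024), whose groups overlapped, and Nlrc5 (-1.51, adjusted p = 0.0037), an activator of MHC class I genes. All 11 log2 fold changes were negative with a median of -0.48. Genes that passed numbered 4 without mIDH1 replicate 1 and 1 without mIDH1 replicate 2 or wtIDH1 replicate 2 or 3. With DESeq2, robust dispersion or a replicate block the number was also 1. Of 7 IFIT, Mx and viperin genes, effectors tied above all to type I interferon, 5 fell, where 5.39% of all genes tested passed as lower. Their median was -1.88, and 3 fell without wtIDH1 replicate 2. The groups lay apart with mIDH1 lower in 6 of the 7, against 14.9% of all genes tested. Mx1, for example, was at 67.1, 45.9 and 22.3 CPM in mIDH1, against 259, 395 and 451 CPM in wtIDH1 (log2 fold change -3.03 ± 0.35 SE, edgeR adjusted p = 0.00036). The others that fell were Mx2 (-2.86), Rsad2 (-2.19), which encodes viperin, Ifit3 (-1.88) and Ifit2 (-1.71). For Mx1 even mIDH1 replicate 1 was below the lowest wtIDH1 library, and for Ifit1 it was not (154 against 108 CPM). Among the GBP members mIDH1 replicate 1 was below that library for Gbp6 and Gbp9, and not for Gbp2, Gbp3, Gbp5 or Gbp7. The difference between the lists was not tested.

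Among partners of the GTPases, 4 of 8 inflammasome genes fell, where 5.39% of all genes tested passed as lower. They were Nlrp3 (log2 fold change -1.23), Il1b (-1.37), Aim2 (-0.85), a sensor of DNA in the cytosol, and Gsdmd (-0.79), which forms the pore of pyroptosis. The number that fell was 1 without wtIDH1 replicate 2 or 3. Casp4, the mouse gene of caspase-11, did not pass (-0.41, edgeR adjusted p = 0.496). None of 10 genes for ATG8 proteins (5) and for their conjugation (5), which IRGs need in order to load onto vacuoles, passed edgeR's test or DESeq2's, and none had an unadjusted p under 0.05. Of 6 genes for the prenylation that anchors Gbp2 and Gbp5 in membranes and for processing after it, 1 rose and 5 did not pass. Of all genes tested, 2.78% passed as higher. The gene that rose was Zmpste24, of a protease that acts after prenylation (1.15, edgeR adjusted p = 0.019). None rose without wtIDH1 replicate 2 or 3.

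**Figure D5:**
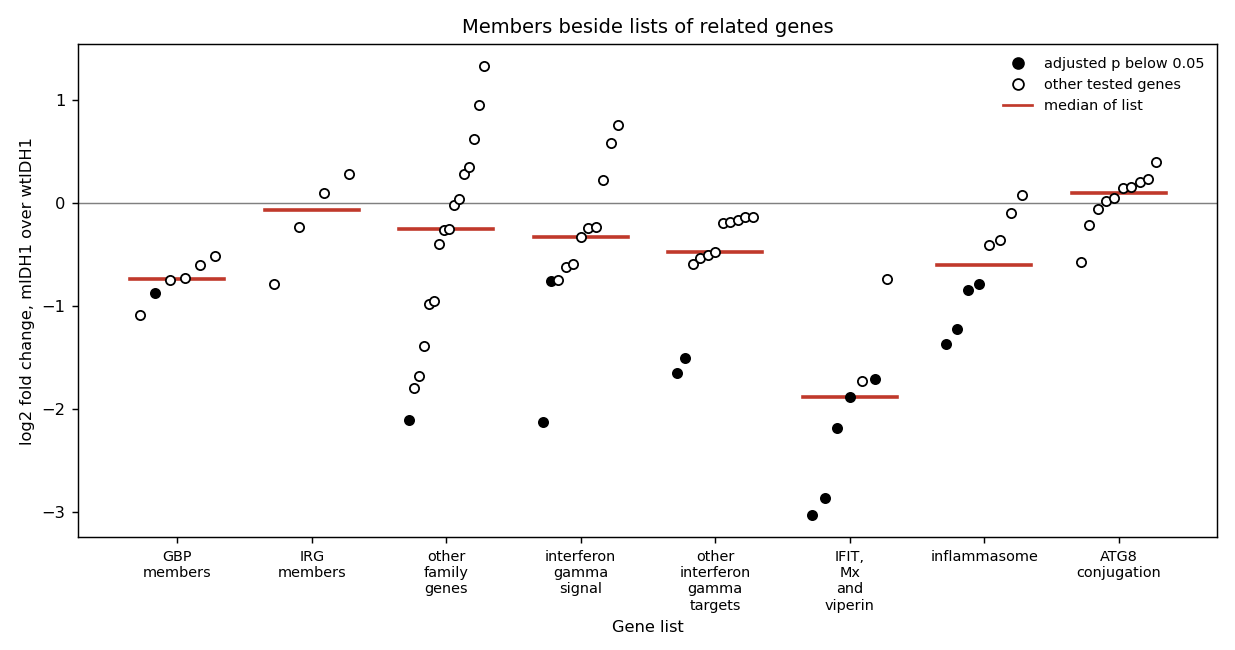
Log2 fold change of mIDH1 over wtIDH1 (vertical axis) for each tested gene of 8 lists, filled where the edgeR adjusted p was below 0.05, with the median of each list as a line. The 6 GBP genes among the 10 lie between -1.09 and -0.52 and the 4 IRG genes among them between -0.79 and 0.28, while the median of the IFIT, Mx and viperin genes is -1.88.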

How the data were processed

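RNA-seq was made from 6 libraries, 3 mIDH1 and 3 wtIDH1. The authors deposited estimated counts of each gene in 1 table, without library scaling. HTSeq, Cuffdiff 2.1.1, Cufflinks, Bowtie2 2.2.1, TopHat2 2.0.13 and FastQC are named, with mm10, per the submitters' processing notes. Their settings, the annotation and the sharing of reads between paralogs are not stated there. Per the labels' protocols the library kit used polyA selection and random primers.

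Counts were rounded (1.31 to 1.61% per library were not whole to within 1e-09). Genes were kept by filterByExpr (minimum count 10, minimum total 15), scaled by TMM and tested with edgeR 4.0.16 in R 4.3.3 (glmQLFit and glmQLFTest, group as the only term), two-sided, Benjamini-Hochberg adjusted over 12950 genes, threshold 0.05. Alternatives used DESeq2 1.42.0 and limma 3.58.1 (voom), and the tests were tried on simulated counts. Chi-square over degrees of freedom was 50.3 to 144 between replicates, above sampling noise. Replicate numbers did not pair libraries. Exon lengths, coordinates and shared windows came from GENCODE M21 (GRCm38), promoters from RefSeq. The members and lists were chosen with earlier results of these data known. All members are named, and of other lists only genes past the threshold or among the 4 with the smallest p could be. Outside this rule Irf1, Ifng, Ifit1, Casp4, Gm12250, Gm4951, Tgtp1, Tgtp2, Gbp1, Gbp10, Itgam and the cell type markers were named after their values were seen.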

Additional observations from a re-analysis of the deposited data

How the results depend on the processing

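Of the 10 genes, 1 passed with RLE, upper-quartile or total scaling, a minimum count of 30, DESeq2, limma voom, the newer quasi-likelihood fit or robust dispersion, and in each of these it was Gbp6. With no filter 3 passed, where 5.1% of genes passed as lower, through Gbp3 (log2 fold change -0.73) and Gbp9 (-1.09). None rose under any alternative. With 1 library left out the count was 0 to 7, and over all genes 334 to 1033 passed (256 to 707 lower, 78 to 365 higher), against 1058 (698 lower, 360 higher) with all libraries. Log2 fold changes then ran from -1.13 to -0.17 for Gbp2, -0.998 to -0.51 for Gbp3, -1.47 to -0.34 for Gbp5, -1.07 to -0.66 for Gbp6, -1.00001 to -0.30 for Gbp7, -1.79 to -0.68 for Gbp9, -0.67 to 0.074 for Irgm1, -0.53 to 0.67 for Irgm2, -1.33 to -0.46 for Igtp, -0.47 to 0.34 for Iigp1 and -0.54 to 0.69 for Gm12250. DESeq2 called 1610 genes, 657 of them higher. Limma voom gave Iigp1 a log2 fold change of -0.0079. Summed with their paralogs, Gbp6 was at -1.10 without passing and Irgm2, with Igtp, at -0.47.

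Same-numbered libraries did not deviate together (r = -0.03, 0.03 and -0.05 over genes for replicates 1, 2 and 3). With a replicate block 585 genes passed (429 lower, 156 higher) and 0 of the 10, with Gbp6 at -0.90 (adjusted p = 0.060), Iigp1 at -0.051 and Gm12250 at -0.030. The cause of these shifts was not tested. The 3 libraries a group, more than their depth, limit the precision of these values, since no member had fewer than 696 counts in any library. Total scaling moved the split of calls to 486 higher and 593 lower.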
